A study of Mus musculus with 461 samples.

Results

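The AP-1 subunit genes described here are Fos, Fosb, Fosl1, Fosl2, Jun, Junb, Jund, Atf3 and Batf3. They were taken by symbol, with earlier results of these data known. All 9 were present among the 31673 genes of the count and TPM tables, and all 9 passed the filter on low counts that left 22378 genes for testing. They fall into the Fos family (4 genes), the Jun family (3 genes) and the pair Atf3 and Batf3.

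Transcripts were measured by RNA sequencing in 461 single mouse cells captured on the Fluidigm C1 system, a microfluidic chip that prepares full-length cDNA from individual cells. The later groups were cells of a reprogramming course named 7F on days 1, 3, 4, 5 and 7, grown in iCD1, a chemically defined medium. The day 0 group was mouse embryonic fibroblasts (MEFs) kept in medium with serum. Medium and day of the course therefore cannot be told apart in any comparison with day 0. All groups were OG2 transgenic cells, which report Oct4 (Pou5f1) activity by green fluorescence, on a mixed 129SVJ, C57B6 and CBA background. The labels name no factors. The published 7F cocktail contains Jdp2, Kdm2b, Map2k6, Glis1, Nanog, Esrrb and Sall4, and a gene's count does not tell vector from native transcripts.

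AP-1 is a dimeric transcription factor of basic leucine zipper (bZIP) proteins. Fos proteins do not readily pair with each other and bind DNA as heterodimers with Jun proteins, whereas Jun proteins can also pair among themselves, and Atf3 and Batf3 pair with Jun proteins. Several of these genes are immediate early genes, switched on within minutes by serum, growth factors or stress through MAP kinase cascades. In fibroblasts AP-1 is known for driving proliferation, matrix remodelling and wound-type programmes, and Jun is known as a barrier to the reprogramming of mouse fibroblasts. Jdp2, a factor of the cocktail, is itself a Jun-binding bZIP protein that represses AP-1 targets.

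Cells of the same title prefix (b1, b2 or b3) and day formed a set. Neither the meaning of the prefix nor whether sets came from separate embryos or cultures is in the labels, so p-values measure the spread between sets, which may be technical. Expected counts were summed per set and given as CPM (counts scaled to a common library size, with edgeR's TMM scaling). Day 0 held 20 cells of b1 and 54 of b2, day 1 held 58 of b2, day 3 held 61 of b1 and 58 of b2, day 4 held 59 of b3, day 5 held 79 of b2 and day 7 held 65 of b2. These 8 sets entered the test, and 5 further b1 cells of day 5 and 2 of day 7 did not. Set totals ran from 58.4 to 209 M counts (M, mega), and the median cell had 0.983 M counts on day 4 and between 1.96 and 3.31 M elsewhere. The day 5 and day 7 sets had medians of 8553 and 8282 genes with counts per cell, against 9263 and 7743 in the 2 day 0 sets. Because day 4 is the only day of b3, day and prefix cannot be told apart there. In sums over cells, fewer cells of a type and less RNA per cell cannot be told apart.

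The labelled fibroblasts of day 0 had counts for all 20 fibroblast markers, which summed to 1006 CPM on day 7, against 6846 and 6931 CPM in the b1 and b2 sets of day 0. Of 19 pluripotency markers, which include Nanog, Esrrb and Sall4 of the cocktail, 14 rose and 1 (Esrrb) fell by day 7, and Pou5f1 stood at 86.1 CPM on day 7, against 0.0539 and 0.0132 CPM on day 0. The 9 contractile markers summed to 295 CPM on day 7, against 4028 and 11130 CPM on day 0. The 7 myeloid markers summed to 1.30 to 19.9 CPM and the 7 lymphoid markers to 0.903 to 6.61 CPM in the 8 sets.

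Of the 9 members, 3 had a log2 fold change over day 0 below 0 on day 1, 8 on days 3, 4 and 7, and 7 on day 5, most of them without a call, and Batf3 lay above 0 on all 5 days. A member changed when its adjusted p in edgeR's quasi-likelihood test, Benjamini-Hochberg adjusted over all genes, was under 0.05. On day 7, 3 of 9 members fell (Fos, Fosl1 and Junb) and none rose, where 3.05% of all genes tested were called lower and 3.55% higher. On day 5, 1 of 9 fell (Junb), against 2.18% of all genes called lower and 2.56% higher. On days 1, 3 and 4 edgeR called 0 of 9 members. The share of all genes called lower was 0.250% on day 1, 1.04% on day 3 and 0.965% on day 4, and the share called higher was 0.934%, 2.10% and 2.07%. At an unadjusted p under 0.05 there were 0 members on day 1, 2 on day 3 and 0 on day 4, and DESeq2 called 0, 2 and 0. The 2 that DESeq2 called on day 3 were Batf3 (higher) and Fosl2 (lower). The median log2 fold change of the members over day 0 was 0.17 on day 1, −0.78 on day 3, −0.59 on day 4, −1.01 on day 5 and −1.25 on day 7, where the median over all genes tested was 0.11 on day 3 and 0.00 on the other days. All 5 comparisons share the same day 0 sets.

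**Figure D1:**
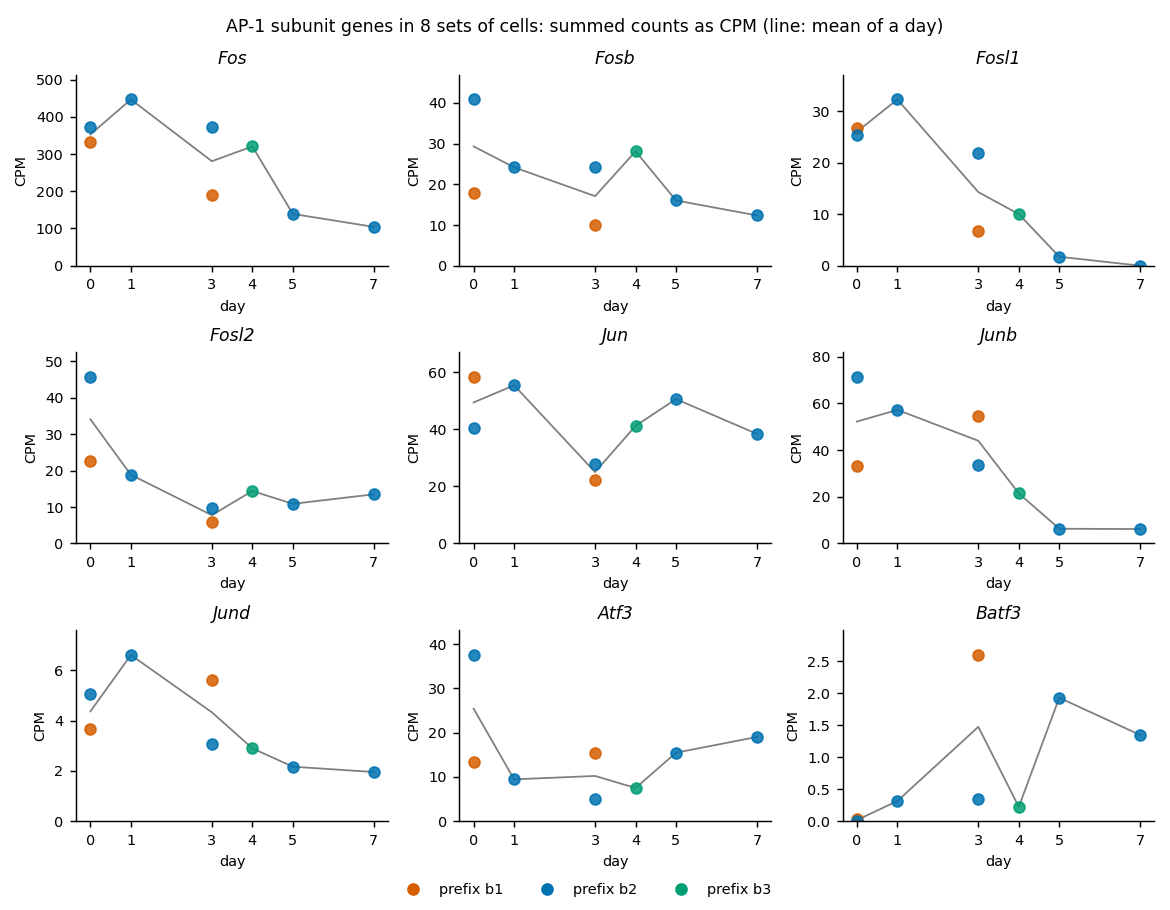
CPM of the 9 AP-1 subunit genes (vertical axes, from 0, each gene on its own scale) against day (horizontal axes) in 8 sets of cells. Each point is 1 set, its colour gives the title prefix and the line joins the means of the days. Fos, Fosl1 and Junb end at 104, 0 and 6.17 CPM on day 7.

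The proximal promoters are shown for the members that hold TGACG, the core of the cyclic AMP response element that CREB, ATF and AP-1 family proteins bind. Jun, which holds none, is added as the main partner of Fos. Of the 9 members, 8 were found in the RefSeq promoter table (GRCm38.p6). The letters TGACG, sought on both strands of the 250 bases before the gene start, occurred in 4 of these 8 (Fos, Fosb, Junb and Atf3), and in 17.8% of 32851 mouse promoters. The lines give the last 150 bases before the start, 5′ to 3′ on the gene's strand. Capitals mark TGACG or its reverse complement CGTCA, the TATA box letters TATAAA, or CCAAT. The stretches lie at chr12:85473740-85473889 (plus strand) for Fos, chr7:19310046-19310195 (minus strand) for Fosb, chr8:84978749-84978898 (minus strand) for Junb, chr1:191183334-191183483 (minus strand) for Atf3 and chr4:95052223-95052372 (minus strand) for Jun.
Fos: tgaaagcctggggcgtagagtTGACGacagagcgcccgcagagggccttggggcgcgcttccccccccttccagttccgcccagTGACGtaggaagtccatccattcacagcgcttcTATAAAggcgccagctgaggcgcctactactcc
Fosb: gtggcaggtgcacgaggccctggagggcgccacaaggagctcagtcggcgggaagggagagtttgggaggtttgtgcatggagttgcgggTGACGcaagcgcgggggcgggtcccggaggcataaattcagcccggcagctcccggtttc
Junb: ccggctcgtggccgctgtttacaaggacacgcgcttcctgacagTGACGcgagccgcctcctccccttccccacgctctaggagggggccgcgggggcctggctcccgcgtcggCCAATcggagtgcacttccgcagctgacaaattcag
Atf3: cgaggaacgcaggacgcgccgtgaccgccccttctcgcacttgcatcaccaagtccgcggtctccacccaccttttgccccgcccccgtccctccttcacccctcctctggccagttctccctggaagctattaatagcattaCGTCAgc
Jun: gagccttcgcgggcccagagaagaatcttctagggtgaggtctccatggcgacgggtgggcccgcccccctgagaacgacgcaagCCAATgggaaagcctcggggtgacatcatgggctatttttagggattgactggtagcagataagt

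The Fos window held 2 copies of TGACG and the only TATAAA among the 8 members, letters found in 12.4% of all promoters. CCAAT occurred in Jun and Junb, and in 33.8% of all promoters. The full AP-1 element TGANTCA occurred in none of the 8 members and in 6.75% of all promoters, and the full response element TGACGTCA in none and in 1.55%. TGACG is contained in TGACGTCA, so these counts overlap. The serum response (CArG) box was found in none of the 8 windows and in 1.47% of all promoters. No match says only that these letters are not in this window. In the RefSeq gene order Fos lies next to Jdp2 on chromosome 12, and Atf3 and Batf3 lie on either side of a single protein-coding gene, Fam71a, on chromosome 1. Fosl1 overlaps Ccdc85b in the same annotation, and no source used here says whether the authors counted by strand, so reads of that overlap could be assigned to either gene.

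Fos, the immediate early partner of the Jun proteins, had the highest mean TPM of the 9 in 8 of 8 sets and fell by day 7. Fos (ENSMUSG00000021250) stood at 333 and 372 CPM in the b1 and b2 sets of day 0, 447 on day 1, 189.5 and 372 in b1 and b2 of day 3, 320.5 on day 4, 139 on day 5 and 104 on day 7. The day 5 and day 7 sets were the lowest of the 8, and the means of days 3, 4 and 0 lay within 1 SD of the day 3 sets of each other. Day 7 held 29.6% of the day 0 mean of 353 ± 27.2 CPM (SD, n = 2), a log2 fold change of −1.76 ± 0.52 (SE) with an adjusted p of 0.0149 in edgeR. Day 5 did not pass (−1.34 ± 0.50, adjusted p = 0.12), though it did with b1 of day 0 left out (0.0363). Within prefix b2 the log2 ratio to day 0, on CPM plus 1, was −1.41 on day 5 and −1.82 on day 7. The Fos call of day 7 was lost without b1 of day 3 (adjusted p = 0.0773), without b2 of day 3 (0.0859) and with limma on log2(TPM + 1) (0.18), and over 14 alternatives its adjusted p ran from 0.00225 to 0.389. Of the 20 fibroblast markers, 17 were called lower on day 7, with S100a4 at 0. Their part in the results for Fos, Fosl1 and Junb was not tested.

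Fos was found in fewer cells of days 5 and 7, and some cells of these days had a high level. Fos was detected (TPM, transcripts per mega-transcript, of 1 or more) in 33 of 65 cells on day 7, or 50.8% with an exact 95% interval of 38.1 to 63.4%. On day 5 it was detected in 49 of 79 cells (62%, 50.4 to 72.7%). In the other 6 sets it was found in 88.9% to 100% of cells. The median cell had 2.18 TPM of Fos on day 7 and 9.09 on day 5, against 86.8 and 148 TPM in b1 and b2 of day 0. The highest cell reached 578 TPM on day 7 and 1425 on day 5, against 1137 and 1120 TPM on day 0. At least 100 TPM of Fos were present in 23.1% of day 7 cells and 25.3% of day 5 cells, against 45% and 55.6% of the day 0 cells. With each cell thinned to 300000 counts and 1 count taken as detection, the share was 50.8% on day 7 and 60.8% on day 5, against 85% and 90.7% on day 0.

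**Figure D2:**
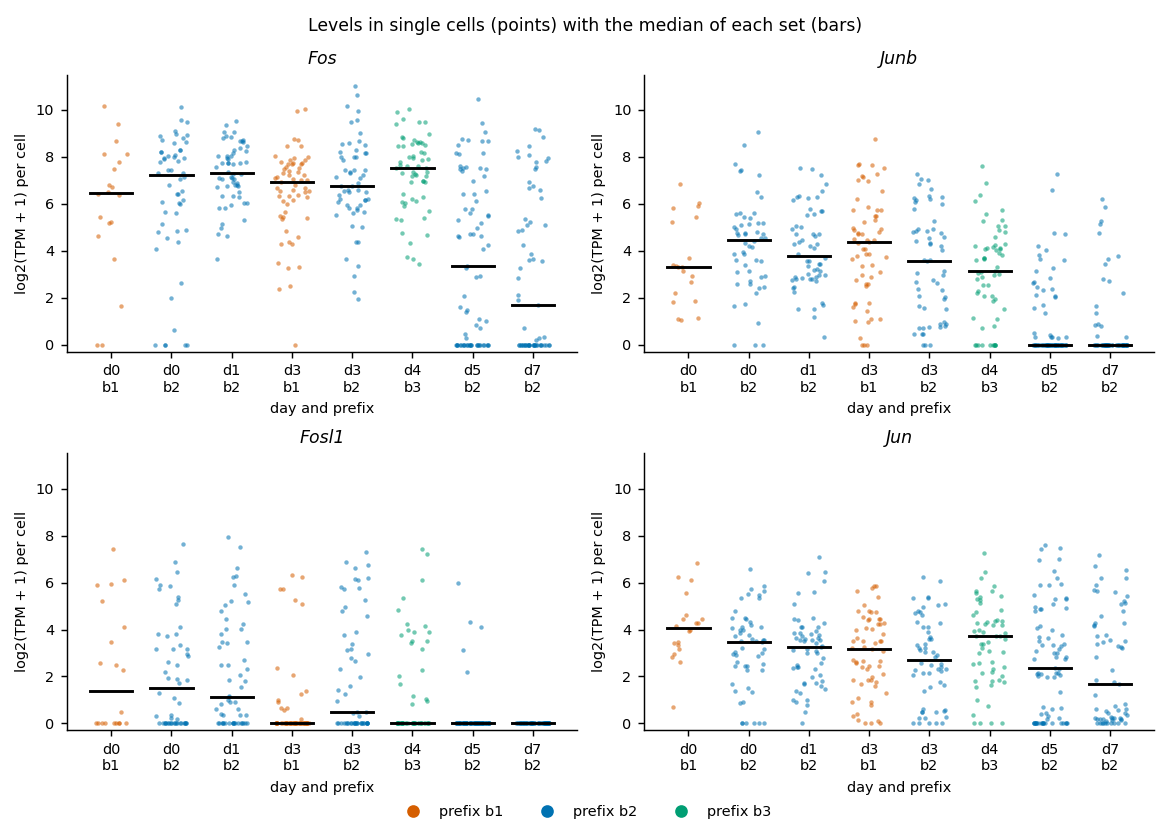
Levels of Fos, Junb, Fosl1 and Jun as log2(TPM + 1) (vertical axes) in single cells of the 8 sets (horizontal axes, day over prefix). Each point is 1 cell, black bars are medians of a set and colours give the prefix. On days 5 and 7 many cells lie at 0 for Fos and Junb, and all 65 cells of day 7 lie at 0 for Fosl1.

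Fosl1, the Fos-related antigen Fra-1, fell to 0 counts on day 7. Fosl1 (ENSMUSG00000024912) stood at 26.7 and 25.3 CPM in the b1 and b2 sets of day 0, 32.3 on day 1, 6.70 and 21.9 in b1 and b2 of day 3, 10.0 on day 4, 1.74 on day 5 and 0 on day 7. The day 0 sets lay close together, and every later set but that of day 1 was below both. Day 7 had 0 counts, against 5317 in the day 0 sets together (adjusted p = 3.22e-08 in edgeR). With a floor of 3 counts for the day 7 set, the level was 1796-fold lower. That floor covers the counting of reads alone and is no lower bound over cells. In day 0, 1 cell held 40.3% of the Fosl1 counts of b1 and 1 cell 31.8% of those of b2. Fosl1 was detected in 0 of 65 cells on day 7, which allows a share of up to 4.62% (3 cells of the total), against 50% and 53.7% of cells on day 0. On day 5 it was detected in 5 of 79 cells (6.33%, 2.09 to 14.2%), and 1 of them held 60% of the counts. The day 5 change of −3.90 ± 1.34 on the log2 scale had an adjusted p of 0.0661, and passed in DESeq2 (0.000376) and with b2 of day 0 left out (0.0409). With limma on log2(TPM + 1) the day 7 call was lost (adjusted p = 0.137), and over 14 alternatives the adjusted p ran from 2.56e-09 to 0.137. Intervals and limits on shares of cells cover counting error only.

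Fosb and Fosl2 stayed without a call on all 5 days in edgeR. Fosb (ENSMUSG00000003545), an immediate early gene like Fos, stood at 17.8 and 40.9 CPM in b1 and b2 of day 0, 24.2 on day 1, 9.92 and 24.3 on day 3, 28.1 on day 4, 16 on day 5 and 12.4 on day 7. The day 0 sets lay far apart, and days 1 and 4 lay between them. Its day 7 log2 fold change was −1.25 ± 0.99 (adjusted p = 0.606). Fosb was found in 24.6% of cells on day 7 (14.8 to 36.9%), against 45% and 51.9% on day 0, and in 74.6% of cells on day 4. Fosl2 (ENSMUSG00000029135), known as Fra-2, stood at 22.5 and 45.6 CPM on day 0, 18.8 on day 1, 5.85 and 9.67 on day 3, 14.4 on day 4, 10.9 on day 5 and 13.5 on day 7. All later sets were below both day 0 sets, though 1 cell held 53.4% of the Fosl2 counts in b1 of day 0. The lowest day was day 3, with 7.76 ± 2.70 CPM on day 3 and 34.1 ± 16.3 CPM on day 0 (SD, n = 2 each), a log2 fold change of −2.13 ± 0.87 (adjusted p = 0.214 in edgeR, 0.0135 in DESeq2). In both prefixes the day 3 set was lower than its day 0 set, by log2 ratios of −1.78 in b1 and −2.13 in b2.

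Junb was the Jun gene that fell. Junb (ENSMUSG00000052837), an immediate early gene whose protein often opposes Jun in proliferation, stood at 33.2 and 71.2 CPM in b1 and b2 of day 0, 57.2 on day 1, 54.5 and 33.4 in b1 and b2 of day 3, 21.4 on day 4, 6.31 on day 5 and 6.17 on day 7. The sets of days 0, 1 and 3 overlapped, day 4 lay below them and days 5 and 7 were the lowest. Day 7 was lower than day 0 by a log2 fold change of −3.08 ± 0.88 (adjusted p = 0.0116) and day 5 by −3.05 ± 0.88 (adjusted p = 0.0157), both in edgeR. Within b2 the log2 ratio to day 0 was −3.30 on day 5 and −3.33 on day 7. Both calls were lost without the b2 set of day 0 (adjusted p = 0.0548 on day 7 and 0.0745 on day 5) and without the b1 set of day 3 (0.053 and 0.0704), and the day 5 call also without b2 of day 3 (0.0549). With limma on log2(TPM + 1) the adjusted p was 0.187 on day 7 and 0.27 on day 5, and over 14 alternatives it ran from 0.000473 to 0.187 on day 7 and from 0.00055 to 0.67 on day 5.

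Junb was found in 13 of 65 cells on day 7 (20%, 11.1 to 31.8%) and 23 of 79 on day 5 (29.1%, 19.4 to 40.4%), against 20 of 20 and 50 of 54 cells of day 0. In the day 3 and day 4 sets it was found in 75.9% to 91.8% of cells. The median cell of days 5 and 7 was at 0 TPM, against 9 and 21.2 TPM on day 0. Thinned to equal depth, the share was 23.1% on day 7 and 26.6% on day 5, against 85% and 87% on day 0.

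Jun, the central partner of the Fos proteins, was not called on any of the 5 days by edgeR, DESeq2 or limma. Jun (ENSMUSG00000052684) stood at 58.3 and 40.6 CPM in b1 and b2 of day 0, 55.5 on day 1, 22.2 and 27.9 on day 3, 41.2 on day 4, 50.6 on day 5 and 38.4 on day 7. The day 3 sets were the lowest, with a log2 fold change of −0.98 ± 0.57 (adjusted p = 0.534). The day 7 log2 fold change was −0.36 ± 0.70 (adjusted p = 0.901) and that of day 5 was 0.03 ± 0.69 (adjusted p = 1), and the sign of the day 5 value changed in several alternatives. Jun was found in 52.3% of cells on day 7 (39.5 to 64.9%), against 95% and 85.2% on day 0. The median cell had 2.22 TPM on day 7, against 15.8 and 10.1 TPM on day 0, while the mean over cells was 16.5 TPM on day 7, against 25.2 and 15.1 TPM. The highest cell had 145 TPM on day 7, against 113 and 94.4 TPM on day 0.

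Jund (ENSMUSG00000071076), the Jun gene usually expressed without a stimulus, had the lowest mean TPM of the 3 Jun genes in 8 of 8 sets. It stood at 3.68 and 5.05 CPM on day 0, 6.61 on day 1, 5.61 and 3.05 on day 3, 2.90 on day 4, 2.17 on day 5 and 1.96 on day 7. Days 0, 1 and 3 were within 3.05 to 6.61 CPM and days 4, 5 and 7 lay below. No day was called, and the day 7 log2 fold change of −1.16 had an SE of 2.03 (adjusted p = 0.887). Jund was found in 30.8% of cells on day 7 (19.9 to 43.5%), against 70% and 50% on day 0, and in 89.7% on day 1.

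**Figure D3:**
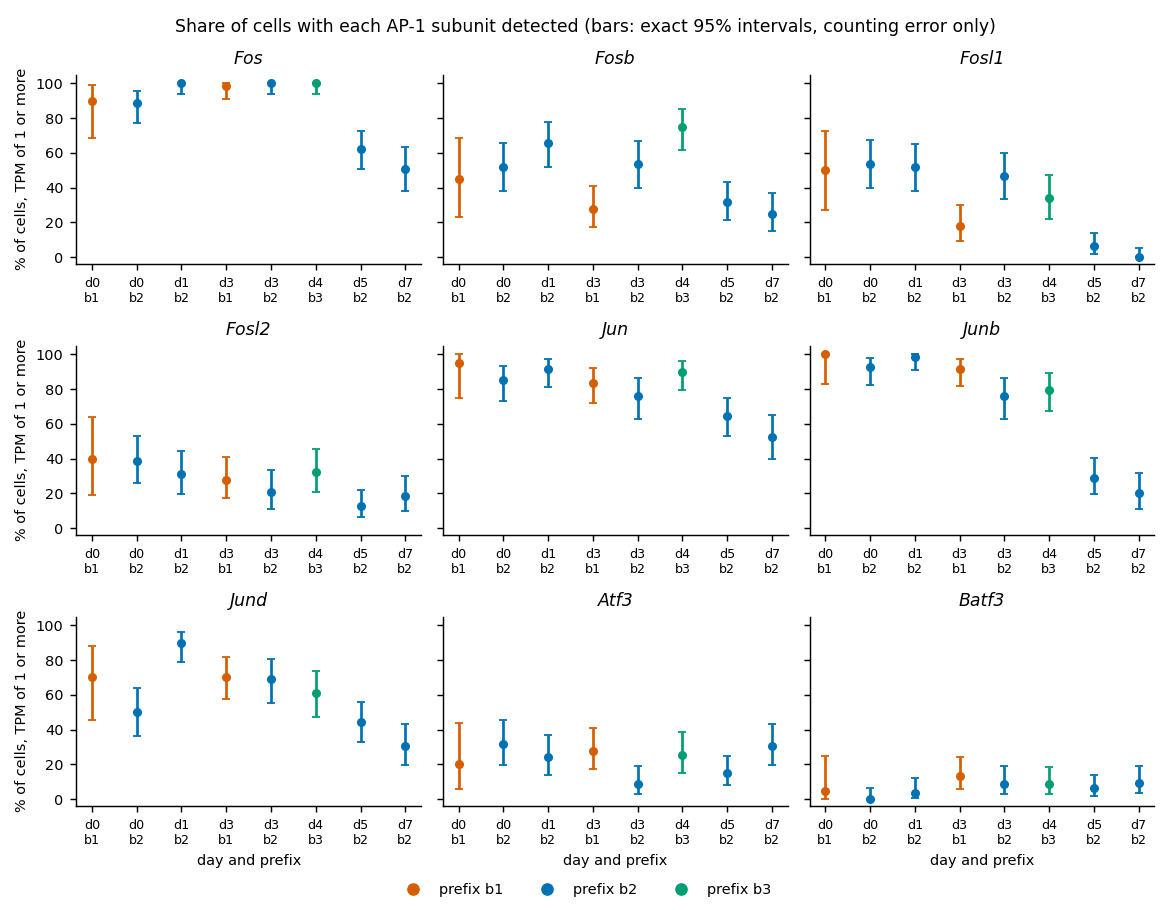
Share of cells with a TPM of 1 or more for each AP-1 subunit (vertical axes, percent) in the 8 sets (horizontal axes, day over prefix). Points are shares, bars are exact 95% intervals for counting error and colours give the prefix. Fos and Junb were found in 50.8% and 20% of day 7 cells, and Atf3 in 30.8%.

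Atf3 and Batf3 were not called on any day by edgeR. Atf3 (ENSMUSG00000026628), a stress-induced bZIP protein that represses many of its targets, stood at 13.3 and 37.6 CPM in b1 and b2 of day 0, 9.46 on day 1, 15.5 and 4.97 on day 3, 7.52 on day 4, 15.5 on day 5 and 19.1 on day 7. The day 5 and day 7 sets lay between the day 0 sets, and no day was called (day 7 log2 fold change −0.42 ± 1.10, adjusted p = 0.953). Atf3 was found in few cells of any set, in 30.8% on day 7 (19.9 to 43.5%) and 15.2% on day 5, against 20% and 31.5% on day 0. A single cell held 43.2% of the Atf3 counts on day 5 and 62.8% in the b1 set of day 3.

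Batf3 (ENSMUSG00000026630), a small bZIP protein without an activation domain that is known from dendritic cells, had 2 counts in all on day 0. It stood at 0.0359 and 0 CPM in b1 and b2 of day 0, 0.316 on day 1, 2.60 and 0.352 in b1 and b2 of day 3, 0.224 on day 4, 1.93 on day 5 and 1.35 on day 7. The ratio to day 0 was 139 on day 7 (38.2 to 1155) and 199 on day 5 (54.8 to 1653), with exact 95% intervals for counting error only. No day was called by edgeR (adjusted p = 0.316 on day 7 and 0.321 on day 5). The counts came from few cells: Batf3 was found in 6 of 65 cells on day 7 and 5 of 79 on day 5, against 1 of 20 and 0 of 54 on day 0, and 1 cell held 40.8% of the day 7 counts. Of 7 myeloid markers, 4 were at 0 counts in the day 7 set (Ptprc, Adgre1, Lyz2 and Tyrobp), with a summed level of 14.5 CPM on day 7, against 3.75 and 7.96 CPM on day 0.

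On the TPM scale, which corrects for transcript length and weights each cell equally, Fos made up most of the summed AP-1 transcripts in every set. The 9 members summed to a mean of 286 and 337 TPM per cell in b1 and b2 of day 0, 302.5 on day 1, 255 and 329 on day 3, 330.4 on day 4, 156 on day 5 and 125 on day 7. Days 5 and 7 were the lowest, and the other 6 sets lay between 255 and 337 TPM. Fos accounted for 57% to 77% of the sum in the 8 sets. The next members differed between sets: Junb ranked second in 4 of the 8, Jun in 3 and Atf3 in 1, the day 7 set. The Jun family held 17.9% of the sum on day 7, against 17.8% and 19.6% on day 0. Atf3 and Batf3 together held 17.2% on day 7 and 10.4% on day 5, against 3.97% and 6.93% on day 0, and Fosl1 held 0% and 0.882%, against 7.52% and 4.84%.

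**Figure D4:**
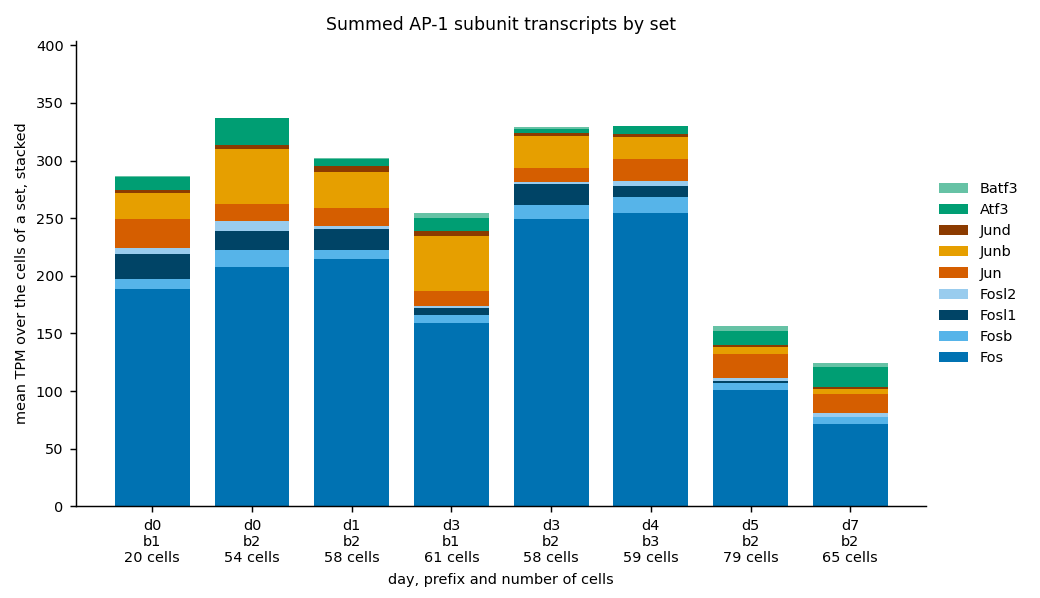
Mean TPM of each AP-1 subunit over the cells of a set, stacked from 0 (vertical axis), for the 8 sets in day order (horizontal axis, with prefix and number of cells). The sums of days 5 and 7 are 156 and 125 TPM and those of the other sets 255 to 337 TPM, with Fos as the largest part of each bar.

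A Fos and a Jun family member, the minimum for a classical AP-1 heterodimer, were detected in the same cell in 25 of 65 cells on day 7 (38.5%, 26.7 to 51.4%) and 43 of 79 on day 5 (54.4%, 42.8 to 65.7%), against 19 of 20 and 51 of 54 cells on day 0. In the sets of days 1, 3 and 4 the share was 96.6% to 100%. No member at all was detected in 12 of 65 cells on day 7 (18.5%) and 8 of 79 on day 5 (10.1%), against 0 of 20 and 0 of 54 on day 0, which allows shares of up to 15.0% and 5.56% (3 cells of each total). The median cell had 2 members detected on day 7 and 3 on day 5, against 5 in each set of day 0. At equal depth the share with both families was 41.5% on day 7 and 57% on day 5, against 95% and 92.6% on day 0. A transcript seen at 0 in a cell may have been missed by the assay, so these shares describe detection.

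Across the cells of a set, several pairs of members correlated positively in all sets. These Spearman coefficients are descriptions over 20 to 79 cells that share a set and differ in depth. Fos and Fosb correlated positively in 8 of 8 sets (0.20 to 0.57), as did Fos and Junb (0.04 to 0.45), Fos and Atf3 (0.13 to 0.53) and Jun and Fosb (0.02 to 0.49). Some other pairs did so too, while Fos and Jun did in 7 of 8 sets (−0.07 to 0.51). For Fosl1 and Fos the coefficients ran from −0.37 to 0.11 in the 7 sets with Fosl1 counts. The coefficient of Fos with the number of genes found in a cell ran from −0.14 to 0.19 over the 8 sets, and that with the total counts of a cell from −0.10 to 0.39, the highest on day 1. Among genes of at least 10 mean TPM, those with the highest mean Pearson correlation with Fos over 8 sets were Zfp36l1 (0.33), Wls (0.31) and Egr1 (0.31), with Fosb they were Fos (0.36), Jun (0.34) and Ptprs (0.26), and with Jun they were Itgb1 (0.36), Klf6 (0.35) and Fos (0.30). For Junb they included Slc39a1 (0.28) and Itm2c (0.26). They were for Fosl1 Tnfaip2 (0.33), Fxyd5 (0.31) and Wnt7b (0.29), and for Fosl2 Anxa2 (0.31), Rhoc (0.31) and Tnfrsf12a (0.30). For Jund they were Arglu1 (0.27), Arf5 (0.25) and Fos (0.23), for Atf3 Bcar1 (0.25), Jun (0.23) and Fos (0.22), and for Batf3 Nkd2 (0.28), Mest (0.21) and Trit1 (0.21). All of these are weak.

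On days 5 and 7 the levels of Fos, Jun, Junb and Fosl2 ran against that of Pou5f1 across the cells of a set. Pou5f1 is the pluripotency factor reported on by OG2. Pou5f1 was detected in 51 of 65 cells on day 7 and 50 of 79 on day 5. Fos was found together with Pou5f1 in 22 day 7 cells, alone in 11, and was not detected in 29 cells that had Pou5f1. On day 5 the counts were 25 cells with both, 24 with Fos alone and 25 with Pou5f1 alone. For Junb, 7 cells of day 7 had both, 6 had Junb alone and 44 had Pou5f1 alone. The Spearman coefficient with Pou5f1 was −0.44 for Fos, −0.52 for Jun, −0.29 for Junb, −0.56 for Fosl2 and −0.44 for Atf3 on day 7 (65 cells), and −0.44 for Fos, −0.43 for Jun, −0.53 for Junb, −0.26 for Fosl2 and −0.09 for Atf3 on day 5 (79 cells). In the 6 sets of the earlier days the coefficient lay between −0.14 and 0.14 for Fos. Pou5f1 was detected in few cells of day 0 (1 of 20 and 1 of 54). It was also detected in few of day 1 (12 of 58) and b1 of day 3 (6 of 61). The values of these sets are thus no contrast to days 5 and 7. In b2 of day 3 Pou5f1 was detected in 27 of 58 cells and on day 4 in 24 of 59, and Fos was found in all of them. The difference of b2 of day 3 and of day 4 from days 5 and 7 was not tested. In the day 7 set the coefficient of Fos with the mean of 20 fibroblast markers was 0.38. Its sign differed between sets, with 0.35 and −0.10 in b1 and b2 of day 0 and −0.11 on day 1. What these relations rest on was not tested.

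**Figure D5:**
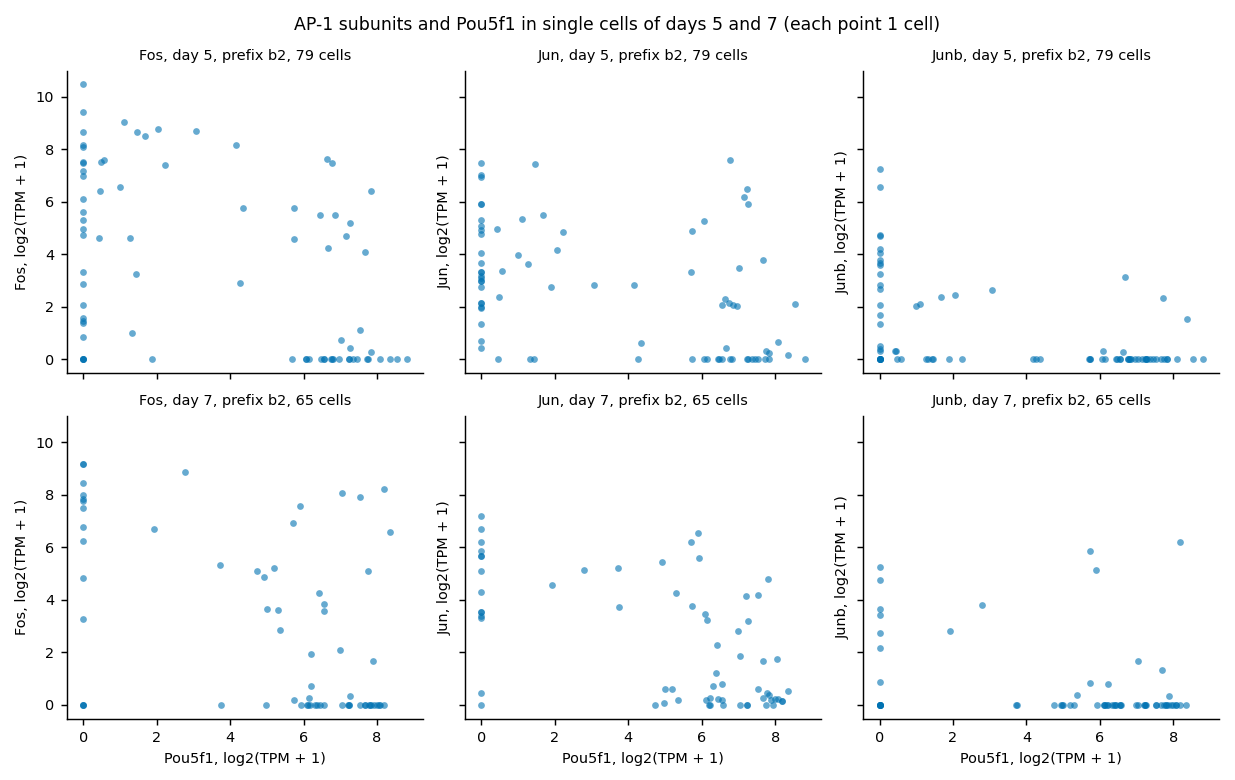
Fos, Jun and Junb (vertical axes) against Pou5f1 (horizontal axes), all as log2(TPM + 1), in the 79 b2 cells of day 5 (upper row) and the 65 b2 cells of day 7 (lower row). Each point is 1 cell. Many cells lie on 1 of the axes, and the Spearman coefficients are −0.44, −0.43 and −0.53 on day 5 and −0.44, −0.52 and −0.29 on day 7.

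Genes around AP-1 were counted in lists by function, in the same fit, to be read beside the shares of all genes called that are given above. With limma on log2(TPM + 1), the calls that remained among the named genes in that fit were Jdp2, Map2k6 and Plau on day 7. Of 25 tested genes for other bZIP proteins of the AP-1, CREB/ATF, C/EBP, Maf and related families, 3 fell (Jdp2, Maf and Creb3) and 1 rose (Mafg) on day 7, and the list's median log2 fold change was −0.58. Jdp2, the cocktail factor beside Fos in the genome, had 4.76 CPM on day 7 and 26.9 on day 5, against 407 and 346 CPM in the day 0 sets, with log2 fold changes of −6.30 ± 0.68 (adjusted p = 4.89e-18) and −3.80 ± 0.59 (adjusted p = 1.74e-08). Through day 4 Jdp2 lay between 247 and 449 CPM, and the cells labelled day 0 thus already held its transcripts, of whichever origin. Maf had a log2 fold change of −2.96 ± 0.60 on day 7 (adjusted p = 5.55e-05). Creb3, a membrane-bound CREB protein, had one of −2.15 ± 0.59 (adjusted p = 0.00663), and its call was lost without the b2 set of day 0 (adjusted p = 0.069). Atf4, the integrated stress response factor, was not called and stood at 216 CPM on day 7, against 224 and 282 CPM on day 0.

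Of 21 MAP kinases and activators, whose cascades phosphorylate Jun and induce Fos, 2 rose (Mapk7 and Mapk14) and 1 fell (Map2k6) on day 7. On day 4, 1 rose (Map2k3) and 1 fell (Map2k6), and on day 5, 2 fell (Map2k6 and Map3k1). Map2k6, the p38 activator of the cocktail, fell to 58.5 CPM on day 7, against 491 and 674 CPM on day 0 (log2 fold change −3.31 ± 0.56, adjusted p = 2.97e-07). In the b3 set of day 4 it had 3.84 CPM (−7.24 ± 0.69), while its close relative Map2k3 had 529 CPM there, against 95.8 and 120 CPM on day 0 (2.30 ± 0.49, adjusted p = 0.000317). Mapk7, which encodes ERK5, rose to 54.3 CPM on day 7, against 2.91 and 5.22 CPM on day 0 (3.74 ± 0.95, adjusted p = 0.00299). With b1 of day 0 or either set of day 3 left out, 1 gene of the list rose on day 7 instead of 2.

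Of 15 genes for MAP kinase phosphatases and feedback inhibitors, 5 fell on day 7 and 1 (Spry4) rose on days 3 and 4. Spry4, an inhibitor of receptor tyrosine kinase signalling, had 228 and 349 CPM on day 3 and 251.2 on day 4, against 31.3 and 134 CPM on day 0 (day 3 log2 fold change 1.80 ± 0.42, adjusted p = 0.00155). That call was lost without the b1 set of day 0 (adjusted p = 0.159) or b2 of day 3 (0.383), and the day 4 call (adjusted p = 0.0345) without the b1 set of day 0 or either set of day 3 (0.143 to 0.449). On day 7 it had 8.36 CPM (−3.31 ± 0.60, adjusted p = 3.31e-06). Spred1 and Spry1, inhibitors of the same pathway, also fell on day 7, by log2 fold changes of −2.52 ± 0.57 and −3.16 ± 1.06. Without the b2 set of day 0 or either set of day 3, 3 of the 15 fell on day 7 instead of 5, and Spry1 was not among those called (adjusted p from 0.107 to 0.112).

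Of 24 other immediate early genes, 8 fell and 1 rose on day 7 and 6 fell on day 5, with list medians of −1.70 and −2.22. Egr1, a zinc finger factor induced with Fos by serum, had 95.8 CPM on day 7 and 69.7 on day 5, against 598 and 1053 CPM on day 0. Its log2 fold change passed the test from day 3, at −1.95 ± 0.40 on day 3, −2.71 ± 0.54 on day 4, −3.57 ± 0.57 on day 5 and −3.11 ± 0.55 on day 7 (adjusted p from 9.13e-05 to 5.72e-08). The day 3 call of Egr1 was lost without the b2 set of day 3 (adjusted p = 0.717). Ccn1, a matricellular protein, fell on all 5 days, to 47.8 CPM on day 1, against 145 and 448 CPM on day 0 (−2.63 ± 0.61, adjusted p = 0.00318). Without the b2 set of day 0 the Ccn1 calls of days 1, 3, 4 and 7 were lost (adjusted p from 0.073 to 0.231). Klf2, also a pluripotency factor, rose to 40.3 CPM on day 7, against 0.108 and 3.88 CPM on day 0 (4.33 ± 1.31, adjusted p = 0.0201), a call lost without the b1 set of day 0 (0.157) or the b2 set of day 3 (0.0563). Ier2 and Sgk1 were not called, with 17.8 CPM of Ier2 on day 7, against 22.8 and 37.5 CPM. The lower calls of this list on day 7 numbered 3 instead of 8 with b2 of day 0 left out, 5 with either day 3 set left out, and with limma on log2(TPM + 1) 1.

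Of 30 genes known as AP-1 targets, such as matrix proteases and inflammatory genes, 16 fell and 1 (Spp1) rose on day 7. The counts lower and higher were 3 and 2 on day 1, 10 and 2 on day 3, 10 and 2 on day 4, and 11 and 1 on day 5, and the list's median log2 fold change was −3.56 on day 7. Ptgs2, the inducible cyclooxygenase, had 0.134 CPM on day 7, against 251.4 and 98.7 CPM on day 0 (−10.35 ± 1.08, adjusted p = 4.22e-19), and had already fallen on day 3 (−3.22 ± 0.56, adjusted p = 1.77e-06), a call lost without the b1 set of day 3 (0.0691). Plau, the urokinase-type plasminogen activator, had 0.0239 CPM on day 7, against 80.3 and 107 CPM (−11.89 ± 1.52), and its fall passed the test from day 3, though not on day 3 without the b1 set of day 3 (adjusted p = 0.092) nor on day 4 without the b2 set of day 0 (0.0661). Mmp3, a stromelysin, was at 0 CPM in both day 0 sets, stood at 22.7 CPM on day 1, 0.265 and 19.9 on day 3 and 1.03 on day 4, and was at 0 again on days 5 and 7. Plaur, the urokinase receptor, did not pass on day 7 (−2.01 ± 0.74, adjusted p = 0.0828). The 17 of 20 fibroblast markers that fell on day 7 moved with this list, and their part in the result was not tested. With limma on log2(TPM + 1) 4 of 28 fell on day 7, and without the b1 set of day 3 the count of day 3 was 6 instead of 10. With b2 of day 0 left out, 1 instead of 3 fell on day 1.

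Of 15 heat shock and dissociation stress genes, edgeR called 0 on each of the 5 days, with 1, 1, 1, 2 and 3 at an unadjusted p under 0.05 on days 1, 3, 4, 5 and 7. DESeq2 called 0 on days 1, 3 and 4 and 1 lower on days 5 and 7, and limma called 0. On day 7, 2 genes of the list were called higher with b2 of day 0 left out and 1 with b1 of day 0 left out. The list's median log2 fold change lay between −0.21 and 0.16. Hsp90ab1, a constitutive chaperone, had 7075 CPM on day 7, against 3325 and 3518 CPM on day 0 (1.05 ± 0.40, adjusted p = 0.101). Of 21 genes for AP-1 coregulators and turnover, 1 fell on day 7, Nfatc1, the calcium-regulated partner of AP-1, with 0.291 CPM on day 7, against 18.4 and 15.9 CPM (−5.87 ± 1.85, adjusted p = 0.0275), a call lost without either set of day 3 (0.122 and 0.0746).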

How the data were processed

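The values come from 461 single cells, each a separate library. Expected counts per gene, in the deposited count table, were estimated by the authors. The submitters' processing notes name RSEM 1.2.22 and bcl2fastq. Of all values in the count table, those at 0 included, 9.11% were not whole. TPM values were deposited by the authors beside them and are scaled for transcript length and library size, with sums of 994110 to 999272 per cell. No source used here names the aligner, genome build, annotation or use of strand. Reads carry no molecular identifiers that the labels mention.

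Cells were grouped by day and title prefix from the labels. For each set of at least 10 cells (454 cells in 8 sets) expected counts were added up, rounded to whole numbers and tested with edgeR 4.0.16 in R 4.3.3: TMM factors (0.833 to 1.15), a filterByExpr filter on days, and a quasi-likelihood fit on day, each later day against day 0, with Benjamini-Hochberg adjustment over 22378 genes and a threshold of 0.05. Days 0 and 3 had 2 sets each, and the lone sets of the other days were assumed to vary like these. The fit had 2 residual degrees of freedom, and its prior degrees of freedom were infinite, so p-values rest on the spread shared across genes. A standard error is the size of the log2 fold change divided by the square root of F. Detection is a TPM of at least 1, with exact 95% binomial intervals. CPM sums weight cells by depth, and a mean TPM weights cells equally. Totals per cell ran from 0.319 to 7.00 M counts (median 2.50), and no 2 cells held identical values (highest correlation 0.862). Alternatives used DESeq2 1.42.0, limma 3.58.1 on log2 of the mean TPM plus 1 or 0.1, other filters, thinned counts, and sets or cells left out. Correlations, intervals and figures came from Python 3.11.15 with scipy 1.17.1, pandas 2.3.3, numpy 2.4.6 and matplotlib 3.10.9. The test was tried on simulated counts first, with 50 genes changed by each fold. For day 7 it recovered 0%, 8%, 30% and 62% of the 2-, 4-, 8- and 16-fold changes. For day 3 the shares were 2%, 24%, 40% and 72%. A gene without a call may therefore still have changed.

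The members and all gene lists were chosen with earlier results of these data known. Named from each list were up to 3 called genes with the largest change, which reached 10 CPM in all sets of their higher day, and the uncalled gene with the highest mean CPM. Jdp2, Map2k6, Pou5f1, Egr1 and Ier2 were always named, Mapk14, Map3k1, Spp1, Mafg, Esrrb and S100a4 were named after their values were seen, and likeness to a member was the mean Pearson r of log2(TPM + 1) over the sets. A few items that this rule selects are not reported here. Promoters were from RefSeq (GRCm38.p6).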

Additional observations from a re-analysis of the deposited data

Results flagged for a closer look

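In 3 members the change on day 3 ran in opposite directions in the 2 prefixes that have both days. The log2 ratio of day 3 over day 0, on CPM plus 1, was lower in b2 than in b1 by a difference of −1.77 for Junb (−1.07 in b2 and 0.70 in b1), −1.08 for Jund (−0.58 and 0.50) and −2.90 for Atf3 (−2.69 and 0.21). With 1 set per prefix and day, these differences were not tested. The share of all genes with opposite directions was not counted, so they are not read as a trait of these members.

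The 2 b1 cells of day 7, which entered only the alternative fit on all 10 sets, held 4 members above both day 0 sets. The share of all genes that lay above both was not counted, so this is not read as a trait of the members. The 2 cells had 2.23 M counts together. The CPM of the 4 members was 85.9 for Fosb, 60.1 for Fosl2, 7.26 for Jund and 40.7 for Atf3, against at most 40.9, 45.6, 5.05 and 37.6 CPM in the day 0 sets. In the 65 b2 cells of day 7 the values were 12.4, 13.5, 1.96 and 19.1 CPM. In the same 2 cells Fos (229 CPM), Junb (0.403 CPM) and Fosl1 (0 CPM) were below both day 0 sets, and 1 cell held 100% of the Jund counts and 89.9% of the Fosl2 counts.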

How the results depend on the processing

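With DESeq2, 2 members were called on day 3 (edgeR 0) and 2 on day 5 (edgeR 1), and leaving each gene's highest cell out of its set also gave 2 on day 5. On day 5 no member (0) was called with the stricter filter, with either limma fit, with all 10 sets or with the replicate block, and the fits without 1 set gave 0 to 2. On day 7, where edgeR called 3, the stricter filter, all 10 sets and the replicate block each left 1, the limma fits 0 and 0, and the fits without 1 set 1 to 3. Over all genes, edgeR called 265, 703, 679, 1059 and 1477 on days 1, 3, 4, 5 and 7. DESeq2 called 617, 1458, 1130, 1986 and 2644, the stricter filter 1, 117, 85, 358 and 553, and all 10 sets 1, 37, 33, 158 and 352. The limma fits called 0 on days 1, 3, 4 and 5, and 582 (plus 1) and 441 (plus 0.1) on day 7. The replicate block called 4, 165, 284 and 422 on days 1, 3, 5 and 7 and gives no value for day 4, where the only set is of b3. Fits without 1 set ran from 145 to 440, 261 to 793, 419 to 846, 688 to 1272 and 916 to 1678.

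The prefixes were not taken as pairs: the deviations of sets of the same prefix correlated at r = 0.057 over 22378 genes in 2 pairs.

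Signs turned in 49 of 611 recomputed member changes, none of them called in either fit; 531 kept their direction and side of the threshold, 25 lost a call and 6 gained one. On day 1 limma gave −0.03 for Fosl1, −0.31 (plus 1) and −0.32 (plus 0.1) for Jun and −0.06 for Junb, the fit without highest cells and the thinned fit −0.09 for Jun, and the block −0.16 for Fosl1. Without 1 set, Junb ran from −0.32 to 0.78, Fosb from −0.76 to 0.44 and Jun from −0.07 to 0.45. On day 3 limma gave 0.01 for Fos, 0.14 and 0.15 for Junb and 0.20 and 0.24 for Jund, all 10 sets 0.02 for Jund, and no highest cells 0.08 for Junb. Without 1 set, Fos ran from −0.90 to 0.07, Junb from −0.69 to 0.40 and Jund from −0.52 to 0.36. On day 4 Fosb was 0.06 with the stricter filter, 0.29 and 0.32 with limma, 0.02 with all 10 sets and 0.18 thinned, and Fos 0.36 with limma, 0.07 thinned and 0.09 without low-complexity cells. Without 1 set, Jun ran from −0.50 to 0.02 and Fosb from −0.54 to 0.66. On day 5 Jun was −0.01 with the stricter filter and with all 10 sets, −0.10 without highest cells and −0.33 without low-complexity cells, and without 1 set it ran from −0.21 to 0.32 and Atf3 from −1.28 to 0.22. On day 7 Atf3 was 0.13 and 0.14 with limma, and all 10 sets gave 0.75 for Fosb, 0.11 for Fosl2, 0.05 for Jund and 0.24 for Atf3. Without 1 set, Atf3 ran from −0.98 to 0.52. The causes were not tested.

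Of 216 recomputed detection shares, 139 stayed inside the interval of the reported share and 77 moved outside it: 47 with a threshold of 10 TPM, 24 with any TPM above 0 and 6 with thinned counts. The number of sets limits these results: 4 of 6 days had 1 set, day 4 was the only day of b3, and intervals on shares cover counting error alone.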
